A study of Mus musculus with 14 samples.

Results

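The 9 microRNAs (miRNAs) described here are mmu-miR-712-5p, mmu-miR-712-3p, mmu-miR-714, mmu-miR-690, mmu-miR-5099, mmu-miR-677-5p, mmu-miR-5117-5p, mmu-miR-3069-3p and mmu-miR-1949 (written without mmu- from here on), out of 1247 mouse miRNAs on the array. They were picked by name because their signal fell after 8 Gy in bone marrow or changed between pretreatment arms, and because some of them come from precursors that serve as other RNAs. Their bone marrow differences by dose and by drug are therefore given as descriptions, without a p-value for any member. Where members are counted among the calls of a fit over all miRNAs, the count describes the choice and is no evidence for it. The tissue difference was not part of that choice and was tested; whether hypothalamus values entered the choice is not recorded, and the tests run there are given with that limit.

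The study measured miRNA on 14 one-colour Agilent arrays from male C57BL/6 mice of 6 to 8 weeks, sampled 12 h after gamma irradiation. Bone marrow had 5 arms, and in each of them 1 array was from unirradiated (0 Gy) and 1 from irradiated (8 Gy) mice. The vehicle arms received phosphate-buffered saline (PBS) into the abdomen (i.p.) or into the stomach (i.g.), and the drug arms amifostine, CBLB502 or nilestriol. In hypothalamus i.p. PBS and amifostine were arrayed, likewise with and without irradiation. Amifostine, a prodrug of a radical-scavenging thiol, was given i.p. at 10 mg/kg 0.5 h before irradiation. CBLB502, an agonist of Toll-like receptor 5, was given i.p. at 0.2 mg/kg 0.5 h before. Nilestriol, a long-acting oestrogen, was given i.g. at 150 mg/kg 48 h before. The 0 Gy mice carried the same pretreatment as the 8 Gy mice of their arm. Each array held pooled RNA of 3 mice, so no group had a repeat array, and any p-value measures the spread between arms or conditions.

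A typical miRNA is cut from a hairpin by Drosha and Dicer and is loaded into Argonaute, where its seed (bases 2 to 8) pairs with target messenger RNAs. Some annotated miRNAs instead come from RNAs with another job, such as ribosomal RNA spacers, transfer RNAs and small nucleolar RNAs (snoRNAs), which guide chemical modification of other RNAs. MiR-712 is known from endothelium, where it comes from a spacer of the ribosomal RNA precursor and lowers the protease inhibitor TIMP3. Bone marrow is made of dividing blood cells and is among the tissues most sensitive to radiation, whereas most neurons of the hypothalamus do not divide.

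RefSeq sequences of build GRCm38.p6 held a mature entry for 3 of the 9 members and a hairpin for 4. The mature sequences follow with the seed in capitals, together with the opposite arm of the miR-677 hairpin, whose response is set beside that of miR-677-5p.
miR-677-5p: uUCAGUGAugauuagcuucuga
miR-677-3p: gAAGCCAGaugccguuccugagaagg
miR-690: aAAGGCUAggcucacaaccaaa
miR-3069-3p: uUGGACACuaaguacugccaca
No other of the 1679 RefSeq mature miRNAs shared the seed of miR-677-5p, of miR-690 or of miR-3069-3p, so none of the 3 belongs to a seed family in that table. They lie at chr10:128085291-128085312 (plus strand), chr16:28599940-28599961 (minus strand) and chr12:105031078-105031099 (minus strand). Mir677 lies within Atp5b, which encodes the beta subunit of mitochondrial ATP synthase. Mir690 lies within Fgf12, a fibroblast growth factor homologue. Mir3069 overlaps both Snhg10, a snoRNA host gene, and Scarna13, a guide RNA of Cajal bodies. Mir5099 overlaps no other gene of the RefSeq table.

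For members without a mature entry, the longest array probe shows which bases were measured. An Agilent probe is DNA that pairs with one end of the miRNA and can be shorter than it.
miR-712-5p: ggtaccgcccggg
miR-712-3p: caacacccgggggt
miR-714: gcgaccgaccggcc
miR-5099: ggagcaccacatcg
miR-5117-5p: taactttattgaTCATCActaac
miR-5117-3p: tttcagcttaacaatcaat
The probes of miR-712-5p, miR-712-3p and miR-714 were among the most GC-rich of the array, with mean GC contents of 82.4%, 74.0% and 83.9% against a median of 51.5% over 1247 miRNAs. The probes of miR-5117-5p were among the poorest in GC, at 24.4%. The mean was 62.9% for miR-5099, 38.5% for miR-677-5p, 45.2% for miR-690, 45.8% for miR-3069-3p and 42.8% for miR-1949. The members thus span nearly the whole range of base composition.

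MiR-677-5p and the miRNA paired by the miR-5117-5p probe share a run of 9 bases, AGUGAUGAU, which no other RefSeq mature miRNA holds. The run holds the core letters of the C box, UGAUGA, which snoRNAs of the C/D class carry near their 5′ end. Their D box near the 3′ end reads CUGA. The capitals in the miR-5117-5p probe mark the complement of those C box letters. Read on the strand of the miRNA, the C box letters occurred in 12 of 1679 RefSeq mature miRNAs (0.715%) and in the paired bases of 11 of 1247 array miRNAs (0.882%). Among 1005 RefSeq hairpins, Mir677 was the only one with the C box letters in its first 20 bases and the D box letters in its last 20 (0.0995%). Its hairpin follows with those letters in capitals, after which come Mir5099, with the bases paired by its longest probe in capitals, and Mir3069, with miR-3069-3p in capitals.
Mir677: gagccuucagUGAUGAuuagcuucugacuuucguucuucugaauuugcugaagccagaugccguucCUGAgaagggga
Mir5099: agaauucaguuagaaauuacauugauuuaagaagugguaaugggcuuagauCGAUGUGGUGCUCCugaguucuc
Mir3069: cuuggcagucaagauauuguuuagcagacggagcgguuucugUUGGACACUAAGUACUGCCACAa
The match of letters is a description and shows no snoRNA function. The array file lists 2 positions for miR-5117-5p, and read as GRCm38.p6 one of them lies in Gas5, a long noncoding RNA that hosts many snoRNAs. The positions listed in the file mix builds, so which one was meant is not settled: 953 of 1015 miRNAs (93.9%) had one inside their GRCm38.p6 hairpin.

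All 4 hairpins were predicted to fold less stably per base than the median hairpin. The predicted folding energy of Mir677 was -0.224 kcal/mol per base, against a median of -0.406 over 1005 hairpins, and 1.99% of hairpins were weaker. For Mir690 it was -0.266 (5.57% weaker), for Mir3069 -0.317 (16.4%) and for Mir5099 -0.359 (30.8%).

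Levels are log2 of the background-subtracted probe signal over the array's 75th percentile, which was taken over the miRNAs that each array of the fit detected. A level of 0 is that percentile. Levels of the members were not compared with each other, since probes differ in brightness. Those of the blood cell markers were compared only as parts of a summed signal. In bone marrow 332 to 403 of the 1247 miRNAs were detected per array, and in hypothalamus 478 to 582. The tissue labels fitted their markers. The neuronal miR-124-3p and miR-9-5p were not detected on any bone marrow array, whereas the neuronal miR-128-3p was on 10 and the oligodendrocyte miR-219-5p on 8. All 4 were lower in bone marrow than in hypothalamus. The blood cell miRNAs miR-223-3p, miR-142-3p, miR-451a and miR-150-5p were all higher in bone marrow. The arrays lay on 3 slides. All PBS and CBLB502 arrays shared slide 1, the nilestriol and amifostine arrays of bone marrow shared slide 2, and hypothalamus amifostine had slide 3. For amifostine and for nilestriol, the difference from PBS and the slide cannot be told apart. Bone marrow amifostine and nilestriol shared a slide, as did both doses of each arm. Between tissues, the amifostine pairs set slide 2 against slide 3, so tissue and slide cannot be told apart in them. The i.p. PBS pairs of both tissues lay on slide 1.

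In bone marrow, 8 of the 9 members were lower at 8 Gy than at 0 Gy in each of the 5 arms, and miR-714 was not. Over all 371 miRNAs tested, 41 (11.1%) were lower in all 5 arms; the members were picked for this, so nothing is read from the comparison. The members' median difference was -0.77, against 0.09 over all tested miRNAs. In bulk tissue, fewer cells of a type and less RNA per cell cannot be told apart. At an adjusted p of 0.05 (limma, arm as block) 7 of the members were among the 13 of 371 miRNAs (3.5%) called lower, a share that the choice of members fixes. None of the 34 called higher (9.16%) was a member. All 47 calls became 1 without the i.p. PBS arm, 2 without amifostine, 7 without CBLB502, 24 without i.g. PBS and 89 without nilestriol.

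Markers of blood cells shifted with dose in the same fit. The erythroid miR-451a was higher at 8 Gy by 1.40 (limma, adjusted p = 0.009222) and the myeloid miR-223-3p by 0.54 (adjusted p = 0.02602), each in 5 of 5 arms. The lymphoid miR-150-5p differed by -0.60 (adjusted p = 0.07031) and the pan-leukocyte miR-142-3p by -0.03 (adjusted p = 0.8923), so 2 of the 4 markers passed. The summed scaled signal of the 4 markers lay between 106.7 and 187.2 at 0 Gy and between 242.3 and 370.5 at 8 Gy, without overlap. The sum adds unlogged signals, so the brightest markers, miR-451a and miR-223-3p, make up most of it. With i.p. PBS at 8 Gy their levels were 8.09 and 6.32, against 3.11 for miR-142-3p and -0.03 for miR-150-5p. The sum does not describe the 4 as a group, since miR-150-5p was lower at 8 Gy in 5 of 5 arms. The part of these shifts in the members' fall was not tested.

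**Figure D1:**
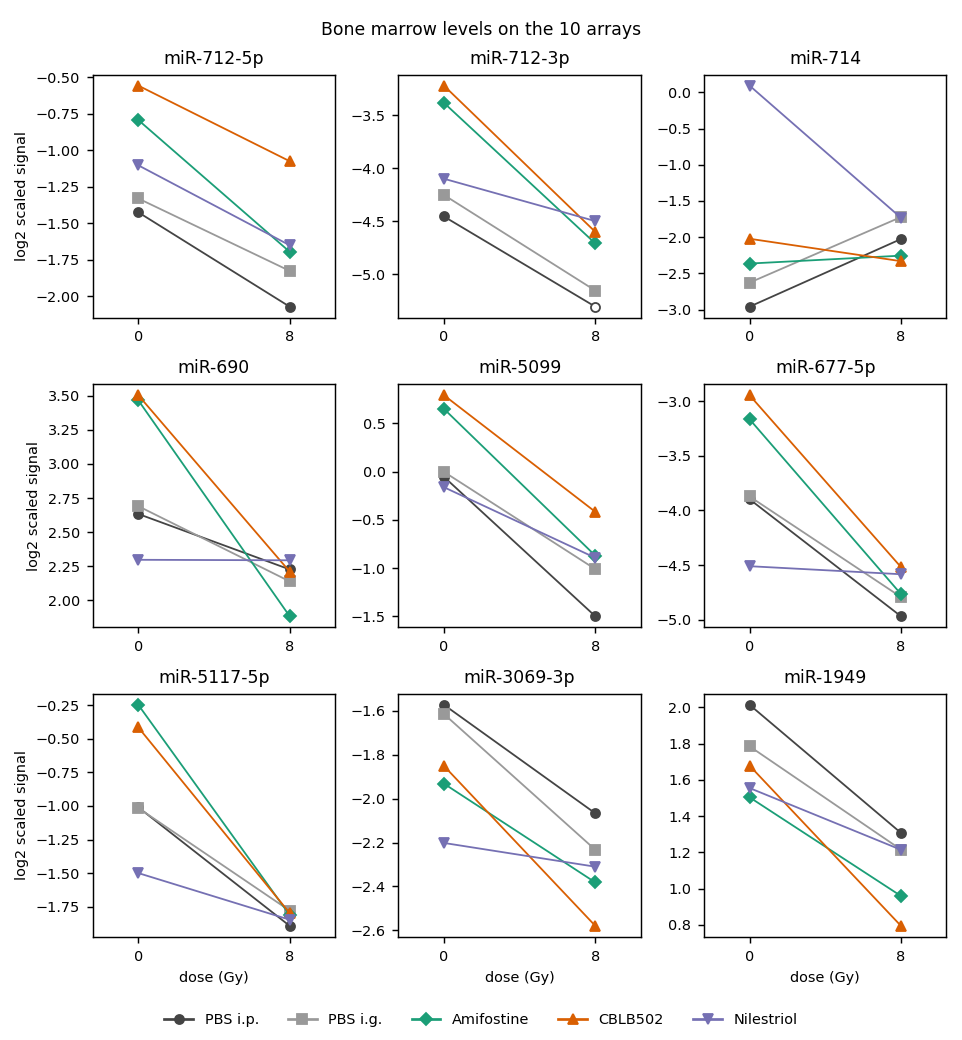
Bone marrow level (log2 of scaled signal, y axes differ) of each member at 0 and 8 Gy; each line joins the 2 arrays of 1 arm, and the open symbol was not detected. All members but miR-714 slope down in every arm, although miR-690 with nilestriol is nearly flat.

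MiR-5099 had the deepest mean fall. Its levels at 0 Gy were -0.05 (i.p. PBS), -0.0020 (i.g. PBS), 0.65 (amifostine), 0.79 (CBLB502) and -0.16 (nilestriol). At 8 Gy they were -1.499, -1.01, -0.87, -0.42 and -0.89 in the same order. Every 8 Gy array lay below every 0 Gy array. The mean difference was -1.18 ± 0.32 (SD, n = 5 arms), from -1.52 with amifostine to -0.73 with nilestriol.

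MiR-677-5p and miR-5117-5p followed each other. MiR-690, which lacks the C box letters that these share, followed them nearly as closely (r = 0.97 and 0.96 over the bone marrow arrays). Whether the letters have a part in this was not tested. MiR-677-5p stood at -3.90, -3.87, -3.17, -2.95 and -4.51 at 0 Gy in the order i.p. PBS, i.g. PBS, amifostine, CBLB502, nilestriol. At 8 Gy it stood at -4.97, -4.79, -4.76, -4.52 and -4.58, with unscaled signals of only 8.53 to 12.6 intensity units. Doses did not overlap, but the lowest 0 Gy array (nilestriol) was within 0.01 of the highest 8 Gy array. The difference was -1.05 ± 0.62 (SD, n = 5 arms), with -1.60 for amifostine and -1.57 for CBLB502 against -0.07 for nilestriol.

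MiR-5117-5p was at -1.01, -1.01, -0.25, -0.42 and -1.499 at 0 Gy in that order, and at -1.89, -1.78, -1.81, -1.80 and -1.85 at 8 Gy. The irradiated arrays lay close together, so the arms differed mainly at 0 Gy. Its difference was -0.99 ± 0.49 (SD, n = 5 arms), again steepest with amifostine (-1.56) and CBLB502 (-1.38) and smallest with nilestriol (-0.35).

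The opposite arms of these 2 hairpins had smaller mean differences, and the difference between the arms of a hairpin was not tested. The 5p arms were picked for their fall or change by arm and the opposite arms were not. The choice thus enters the comparison, and nothing is read from it. MiR-677-3p differed by -0.47 (limma with arm as block, adjusted p = 0.0649 over all tested miRNAs) and miR-5117-3p by -0.44 (adjusted p = 0.0703), so neither passed the test. The gap lay mainly in the amifostine, CBLB502 and i.p. PBS arms: with i.g. PBS miR-677-3p differed by -0.91 against -0.92 for miR-677-5p, and miR-5117-3p by -0.82 against -0.76 for miR-5117-5p. With nilestriol it was -0.16 against -0.07 and -0.16 against -0.35. The opposite arms were not higher at 0 Gy with the drugs: miR-677-3p was at -1.17 with both PBS routes, -1.71 with amifostine, -1.55 with CBLB502 and -1.98 with nilestriol. MiR-3069-5p, the opposite arm of miR-3069-3p, was not detected on any of the 14 arrays.

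MiR-690 was at 2.63, 2.69, 3.47, 3.50 and 2.30 at 0 Gy in the order i.p. PBS, i.g. PBS, amifostine, CBLB502, nilestriol, and at 2.23, 2.14, 1.88, 2.21 and 2.29 at 8 Gy. Its 2 highest arrays were the unirradiated amifostine and CBLB502 arrays. The difference was -0.77 ± 0.65 (SD, n = 5 arms), with -1.58 for amifostine, -1.29 for CBLB502, -0.55 for PBS i.g., -0.41 for PBS i.p. and -0.0036 for nilestriol.

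Both arms of miR-712, the miRNA of the ribosomal RNA spacer, were lower at 8 Gy. MiR-712-5p was at -1.43, -1.33, -0.79, -0.56 and -1.10 at 0 Gy in that order and at -2.07, -1.83, -1.70, -1.08 and -1.65 at 8 Gy. The 8 Gy CBLB502 array lay above 3 of the 0 Gy arrays, so the doses overlapped, although each arm fell by a similar amount: -0.62 ± 0.17 (SD, n = 5 arms). This was the smallest spread between arms among the members, from -0.90 to -0.50.

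MiR-712-3p was dim throughout. It was at -4.46, -4.25, -3.38, -3.22 and -4.10 at 0 Gy in that order and at -5.31, -5.16, -4.71, -4.60 and -4.50 at 8 Gy. The 8 Gy PBS i.p. value was not detected and stood at the floor of -5.31, so the fall there (-0.85) is a lower bound in size. Doses did not overlap, and the mean difference was -0.97 ± 0.40 (SD, n = 5 arms).

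MiR-1949 and miR-3069-3p were also lower in each arm but did not rise with amifostine or CBLB502. MiR-1949 was at 2.01, 1.79, 1.504, 1.68 and 1.56 at 0 Gy in that order and at 1.31, 1.22, 0.96, 0.79 and 1.21 at 8 Gy, with no overlap. Its difference was -0.61 ± 0.20 (SD, n = 5 arms). MiR-3069-3p was at -1.57, -1.61, -1.93, -1.85 and -2.20 at 0 Gy and at -2.07, -2.23, -2.38, -2.58 and -2.31 at 8 Gy. Here the nilestriol array at 0 Gy lay below the PBS i.p. array at 8 Gy, and the difference was -0.48 ± 0.23 (SD, n = 5 arms).

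MiR-714 went different ways in different arms. It was at -2.96, -2.63, -2.36, -2.02 and 0.09 at 0 Gy in that order and at -2.03, -1.72, -2.25, -2.33 and -1.73 at 8 Gy. The unirradiated nilestriol array stood far above the other 9. The difference was 0.93 for i.p. PBS, 0.91 for i.g. PBS, 0.11 for amifostine, -0.31 for CBLB502 and -1.82 for nilestriol, a mean of -0.04 ± 1.13 (SD, n = 5 arms). With single arms left out the mean ranged from -0.31 to 0.41, the highest without nilestriol, so its sign depended on the arms included. The signs for both PBS arms and for nilestriol were the same under each of the 3 other scalings tried.

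**Figure D2:**
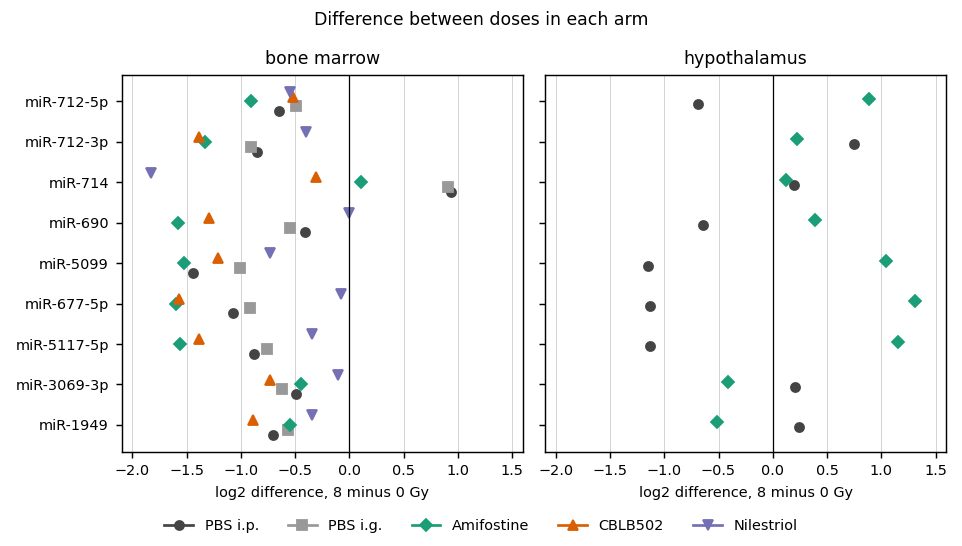
Log2 difference between 8 and 0 Gy of each member in each arm, bone marrow left and hypothalamus right; each symbol is the difference of 1 pair of arrays. In bone marrow nearly all symbols lie left of 0, and in hypothalamus 5 members have PBS left and amifostine right of 0.

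Doses did not overlap for 6 of the members (miR-5099, miR-677-5p, miR-5117-5p, miR-690, miR-712-3p and miR-1949), as for 13 of all 371 tested miRNAs (3.5%), a count the choice of members again enters. For miR-690 the gap was minimal: the lowest 0 Gy array stood at 2.297 and the highest 8 Gy array at 2.294, both with nilestriol. No member was among the 22 (5.93%) whose 8 Gy arrays all lay above. The count of 8 members lower in every arm was 8 under each of the 3 other scalings. It was 5 with normexp background correction, which adds an offset and shrinks dim signals. With the authors' deposited table miR-677-5p was not lower with nilestriol (log2 3.31 at 0 Gy and 3.39 at 8 Gy). The scanner software's own totals gave miR-677-5p a difference of 0.69, a change of direction. For some dim miRNAs these totals repeated the value of another miRNA, and the part of this in the miR-677-5p value was not tested.

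Single probes were also compared between doses. All 4 miR-712-5p probes were lower in 5 of 5 arms, with mean differences from -0.84 for the probe of 13 bases to -0.50 for that of 10 bases. Both miR-5099 probes fell by similar amounts (-1.27 and -1.17). Of the 2 miR-690 probes, one was lower in 5 and the other in 4 of 5 arms, with a difference of 0.0035 in the remaining arm. The shortest probes of miR-712-3p and miR-714 had signal at or below 0 on some arrays and gave no value. The 3 miR-714 probes with signal above 0 on all arrays were each lower in only 2 of 5 arms, so its mixed pattern was not that of 1 probe.

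Before irradiation, the amifostine and CBLB502 arrays stood above the PBS i.p. array for 7 members and below it for miR-3069-3p and miR-1949. The arms were part of the choice, so the values are descriptions. With CBLB502 at 0 Gy the difference from PBS i.p. was 1.24 for miR-712-3p, 0.95 for miR-677-5p, 0.94 for miR-714, 0.87 for miR-690, 0.87 for miR-712-5p, 0.85 for miR-5099 and 0.59 for miR-5117-5p. It was -0.28 for miR-3069-3p and -0.34 for miR-1949, while the median over all tested miRNAs was 0.10. With amifostine the same 7 members stood 0.60 to 1.07 above PBS i.p., against a median of 0.07. Ranked from the highest of all 371 differences, they ran from number 8 (miR-712-3p) to 106 (miR-714) with amifostine. With CBLB502 they ran from number 3 (miR-712-3p) to 101 (miR-5117-5p). Many other miRNAs thus stood as high on these arrays.

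At 8 Gy this excess was kept by some members and not by others. With CBLB502 it was 0.996 for miR-712-5p, 1.08 for miR-5099 and 0.71 for miR-712-3p, but 0.09 for miR-5117-5p, -0.02 for miR-690 and -0.31 for miR-714. With amifostine it was 0.63 for miR-5099, 0.60 for miR-712-3p and 0.38 for miR-712-5p, and -0.34 for miR-690. The 2 vehicle arrays at 0 Gy differed from each other by at most 0.33 in any member, and at 8 Gy by at most 0.49.

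Over both doses against the 4 PBS arrays, CBLB502 differed by 0.85 for miR-712-5p, 0.88 for miR-712-3p and 0.83 for miR-5099. These 3 members were among the 20 of 371 miRNAs (5.39%) called higher, and none was among the 25 called lower (6.74%). Nothing is read from these counts, since the arms entered the choice. In the same fit all 4 blood cell markers were lower with CBLB502, with a median of -0.32, and miR-223-3p passed the test at -0.95 (limma, adjusted p = 0.02765). With CBLB502 the summed scaled signal of the 4 markers, again mostly that of miR-451a and miR-223-3p, was 130.1 at 0 Gy and 242.3 at 8 Gy. It was 187.2 and 361.5 with i.p. PBS and 167.3 and 299.6 with i.g. PBS. The part of this shift in the members' values was not tested. The count of all 45 calls (12.1%) was 0 against the i.p. PBS arrays alone, 0 without any of 4 single arrays (PBS i.p. at either dose, PBS i.g. at 0 Gy, CBLB502 at 8 Gy) and 0 once a trend on probe GC content was removed; it was 21 without the CBLB502 array at 0 Gy. CBLB502 differences rose with probe GC content over all 371 miRNAs (Spearman rho 0.426, across miRNAs, which are not replicates). Amifostine differences in bone marrow rose with it too (rho 0.385). For amifostine and nilestriol no miRNA of 371 was called (0%), although 76 and 95 had an unadjusted p under 0.05 in limma.

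Nilestriol differed from the other drugs. At 0 Gy miR-714 stood 2.72 above PBS i.g., a 6.59-fold difference and the highest of all 371 tested miRNAs, while at 8 Gy the difference was -0.01. Its probes are the most GC-rich of the members, and nilestriol differences also rose with probe GC content (rho 0.471); the part of GC content in this value was not tested. At 0 Gy 6 members stood below PBS i.g. with nilestriol, by -0.16 (miR-5099) to -0.64 (miR-677-5p), and the miR-712 arms stood 0.15 and 0.23 above it.

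**Figure D3:**
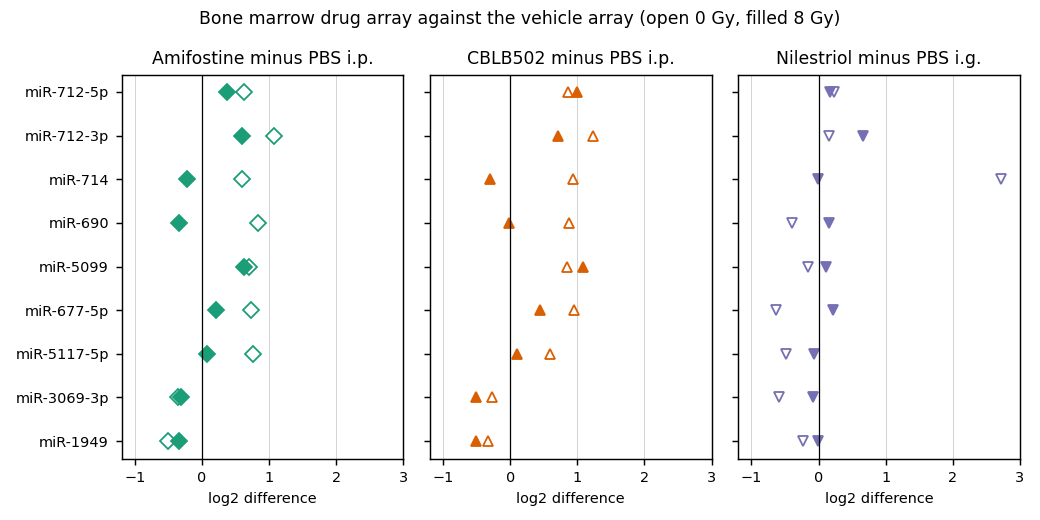
Log2 difference of each member between a bone marrow drug array and the PBS array of the same route, at 0 Gy (open) and 8 Gy (filled); each symbol is the difference of 2 arrays. MiR-714 with nilestriol at 0 Gy (2.72) lies far from all other values.

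Over the 10 bone marrow arrays the members showed 3 patterns, seen after their values were known. MiR-677-5p and miR-5117-5p correlated at r = 0.98, miR-677-5p and miR-690 at 0.97, and miR-712-3p and miR-5099 at 0.95. Part of this is the shared dose difference; with each dose centred the values were 0.94, 0.93 and 0.88. MiR-3069-3p and miR-1949 formed a pair (0.94, and 0.87 with doses centred), and centred by dose miR-1949 ran against miR-712-5p (-0.77). MiR-714 correlated with the others at 0.05 or below, and with each dose centred it ran against miR-3069-3p (-0.63), miR-5117-5p (-0.53) and miR-677-5p (-0.51). The arrays share scaling and RNA input, so these are descriptions without a p.

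Among 288 other miRNAs detected on all 10 arrays, miR-378a-3p was the most like miR-677-5p (r = 0.97), miR-690 (0.98) and miR-5117-5p (0.96). MiR-1906 was the most like miR-712-3p (0.96) and miR-5099 (0.96), and it came second for miR-690, miR-677-5p and miR-5117-5p. MiR-6238 was the most like miR-712-5p (0.96), and miR-5105 the most like miR-714 (0.96). MiR-362-3p was the most like both miR-3069-3p (0.98) and miR-1949 (0.95).

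Wider lists were counted as a description, and nothing is read from them. Of the 54 tested miRNAs with a number within 10 of a member's, 1 was called higher and 1 lower after irradiation, where 9.16% and 3.5% of all 371 were, and their median was -0.13. Of 9 other miRNAs that overlap snoRNA or transfer RNA genes, such as miR-664 and miR-1839, 4 were on the array and 3 were tested in bone marrow. None passed the limma test for dose or had an unadjusted p under 0.05, and the median was 0.28.

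In hypothalamus, 5 members were lower at 8 Gy with PBS and higher at 8 Gy with amifostine. How many of the 544 tested miRNAs had these signs was not counted, so nothing is read from the count of 5. A difference of at least 1 each way was seen for 29 of the 544 (5.33%), 3 of them members. Ranked by the amifostine minus the PBS difference, miR-677-5p, miR-5117-5p and miR-5099 were numbers 7, 11 and 21. MiR-712-5p was number 96 and miR-690 number 146. The non-member miR-664-5p had the same signs (-0.43 and 0.38). No miRNA passed the limma test for dose (0 of 544, 0%, and 0 at an unadjusted p of 0.05) or for amifostine (0 of 544, 0%, and 1 unadjusted), with 4 arrays and 1 per group. The values below are therefore descriptions of 4 pools. The difference between the arms was not tested.

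MiR-677-5p was at -3.66 with PBS and -5.24 with amifostine at 0 Gy, and at -4.79 and -3.94 at 8 Gy. It differed by -1.13 with PBS and by 1.31 with amifostine. MiR-5117-5p was at -0.78 and -2.48 at 0 Gy and at -1.91 and -1.33 at 8 Gy, differences of -1.13 and 1.15. The pair moved together here as in marrow, and their highest array was the unirradiated PBS array.

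MiR-5099 was at -0.64 and -2.13 at 0 Gy and at -1.79 and -1.09 at 8 Gy, differences of -1.15 and 1.04. MiR-712-5p was at -1.57 and -2.32 at 0 Gy and at -2.26 and -1.43 at 8 Gy, differences of -0.69 and 0.89. MiR-690 differed by -0.64 and 0.39. For each of these 5 members the amifostine array was below PBS at 0 Gy and above it at 8 Gy, so both doses took part in the crossing.

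At 0 Gy the amifostine array was lower than PBS by 1.70 for miR-5117-5p, 1.59 for miR-677-5p and 1.49 for miR-5099. Ranked from the highest, these were numbers 544, 542 and 539 of all 544 differences. In bone marrow the same drug at the same dose stood above PBS for these members by 0.70 to 0.76.

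The other arms of the same hairpins did not show the crossing of the 5p arms. MiR-677-3p differed by 0.15 with PBS and -0.36 with amifostine, and miR-5117-3p by -0.06 and -0.48. MiR-712-3p, opposite to miR-712-5p, was higher at 8 Gy in both arms (0.75 and 0.22). MiR-714 was also slightly higher in both (0.20 and 0.12), and miR-3069-3p (0.21 and -0.41) and miR-1949 (0.24 and -0.51) went the opposite way to the 5 members; the signs of miR-3069-3p with both treatments and of miR-714 with PBS flipped without scaling. The positive signs of miR-712-3p and miR-714 also depended on the treatment of dim signal. With normexp the amifostine differences were -0.11 and -0.10, and with the scanner software's totals the PBS differences were -0.30 and -0.29. Over all 544 miRNAs, hypothalamus dose differences rose with probe GC content (Spearman rho 0.399), and the probes of these miRNAs are GC-rich (74.0% and 83.9%). The part of GC content in their signs was not tested.

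**Figure D4:**
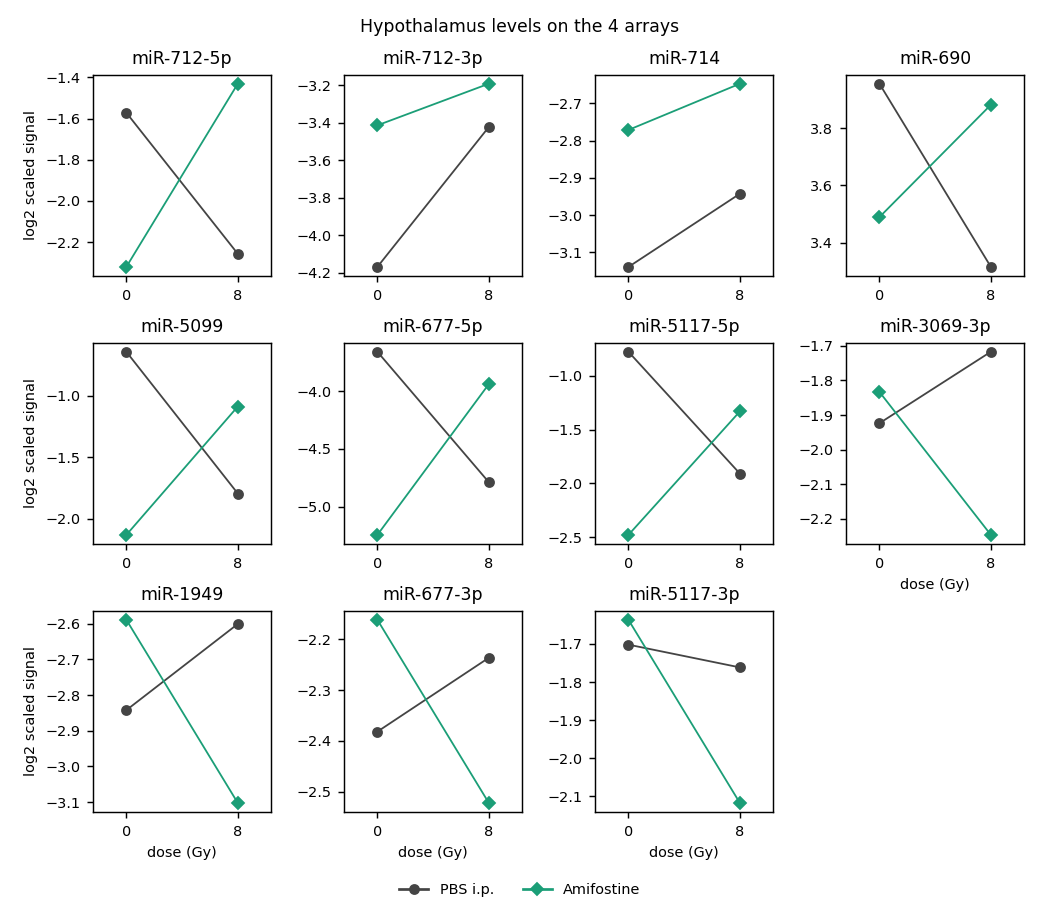
Hypothalamus level (log2 of scaled signal, y axes differ) at 0 and 8 Gy for PBS i.p. and amifostine; each point is 1 array of pooled RNA. MiR-712-5p, miR-690, miR-5099, miR-677-5p and miR-5117-5p cross with PBS falling and amifostine rising, while miR-677-3p and miR-5117-3p do not.

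This crossing was shared with other miRNAs. A difference of at least 1 down with PBS and up with amifostine was seen for 29 of 544 tested miRNAs (5.33%), 3 of them members (miR-677-5p, miR-5117-5p and miR-5099); 0 of 544 went the opposite way by that much. The 26 others included miR-1956, miR-691, miR-696 and several of the miR-466 and miR-669 groups. Hypothalamus PBS and amifostine lay on different slides, but the doses of an arm shared one. MiR-677-5p had signals of only 7.31 to 26.1 units here, and its differences were -0.09 and -0.02 with normexp background correction and 0.14 and -0.02 with the scanner software's totals, so its crossing depended on how dim signal was treated. For miR-5117-5p, miR-5099, miR-712-5p and miR-690 the signs held under each of the 9 other settings tried.

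Between tissues, miR-1949 was far higher in bone marrow. Over the 4 conditions arrayed in both tissues its level was 1.84 in marrow against -3.51 in hypothalamus with PBS at 0 Gy, and 1.25 against -2.95 at 8 Gy. With amifostine it was 1.34 against -2.99 at 0 Gy and 0.93 against -3.62 at 8 Gy. No marrow array came near a hypothalamus array. The difference was 4.61 ± 0.23 (SE, 8 arrays), 24.3-fold, with an adjusted p of 7.694e-05 (limma, condition as block), and it was higher in 4 of 4 conditions. It passed the test under all 18 alternatives run.

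MiR-714 was higher in bone marrow by 0.85 ± 0.14 (SE, 8 arrays), 1.80-fold, with an adjusted p of 0.006306 (limma), in 4 of 4 conditions. Its direction turned to -0.68 once a trend on probe GC content was removed, and without scaling the difference was 0.21 (adjusted p = 0.5737, limma). With PBS it was at -3.14 in marrow against -3.81 in hypothalamus at 0 Gy and at -2.08 against -3.30 at 8 Gy. With amifostine it was at -2.53 against -3.17 and at -2.29 against -3.16.

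In this fit these 2 members passed and the other 7 did not, where 297 of 530 tested miRNAs (56%) did, 84 higher (15.8%) and 213 lower (40.2%) in bone marrow. The count of 2 members was 7 with the 75th percentile over all miRNAs, with quantile normalization, with normexp and with the authors' deposited table, 1 without scaling, and 4 without the unirradiated amifostine pair. The split was 242 higher and 134 lower with the 75th percentile over all miRNAs, 188 and 180 with quantile normalization and 43 and 263 without scaling; the median over all tested moved from -0.38 to 0.62, 0.10 and -0.86. MiR-5099 was higher in marrow by 1.35 ± 0.47 (adjusted p = 0.0658), in 4 of 4 conditions, by 3.02 in the unirradiated amifostine pair and by 0.59 to 1.08 in the other pairs. MiR-712-5p was higher by 0.77 ± 0.29 (adjusted p = 0.0798), also in 4 of 4, but by -0.69 with the GC trend removed.

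The remaining 5 members did not pass in this fit. MiR-5117-5p differed by 0.76, miR-677-5p by 0.58 and miR-3069-3p by 0.32; the last 2 were -0.06 and -0.33 without scaling. MiR-690 differed by -0.73 and miR-712-3p by -0.60, and both were positive with the 75th percentile over all miRNAs (0.68 and 0.76). MiR-677-3p was higher in marrow by 1.05 ± 0.21 (adjusted p = 0.01101, limma), in 4 of 4 conditions, while miR-677-5p of the same hairpin ranged from -0.34 to 2.28 over those conditions.

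**Figure D5:**
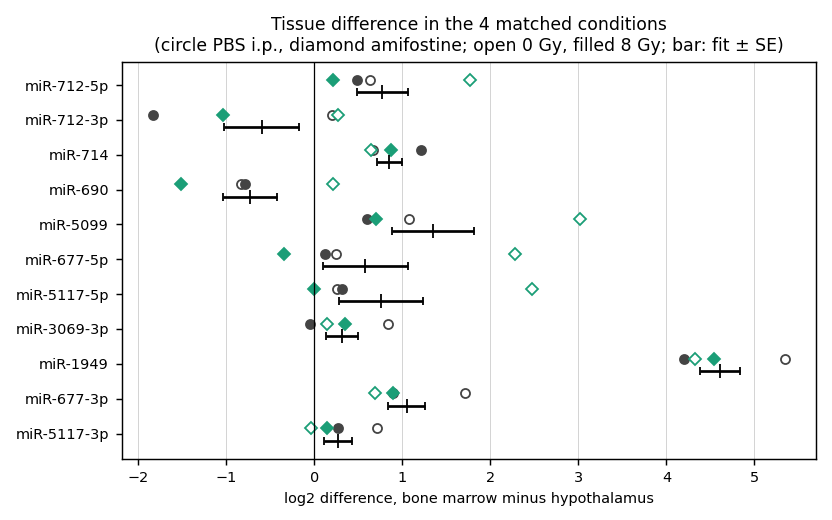
Log2 difference between bone marrow and hypothalamus in the 4 matched conditions (symbols, 1 pair of arrays each) with the fitted difference ± SE (bar) for the 9 members, miR-677-3p and miR-5117-3p. MiR-1949 lies above 4 in each condition, and the amifostine pair at 0 Gy lies apart for miR-5099, miR-677-5p and miR-5117-5p.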

How the data were processed

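The authors' deposited scanner files hold the intensity of each spot after background subtraction (software Feature Extraction, version 10.7.1.1, per the file headers). The authors' deposited value table holds log2 values, with scaling not given in the sources used here, and served as an alternative. Spots marked as outliers (4.42 to 5.27% of spots per array) were left out, spots were averaged per probe and then per miRNA, and signals were divided by the 75th percentile, raised to a floor (log2 -5.31 in bone marrow, -5.28 in hypothalamus, -5.61 for matched arrays) and logged. Detection follows the scanner software. A miRNA was tested where detected on at least 50% of the arrays of a fit.

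Fits used limma 3.58.1 in R 4.3.3 over all tested miRNAs, two-sided, with Benjamini-Hochberg adjustment at 0.05. The script was tested on simulated data. The arm (bone marrow dose) or condition (tissue) was the block, since the arrays of an arm share pretreatment and route. Drugs were set against all 4 PBS arrays with dose as covariate. RNAfold 2.7.2 folded the hairpins. Named miRNAs were the members, the opposite arms, and for each member the 2 most correlated miRNAs detected on all 10 bone marrow arrays. Members and lists were chosen with earlier results of these data known. The number of arrays limits the precision.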

Additional observations from a re-analysis of the deposited data

Results flagged for a closer look

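Several members differed in sign between groups under the same 8 minus 0 Gy contrast; none of these differences was tested, since each rests on 1 array per group. With amifostine in hypothalamus the log2 difference was 1.31 for miR-677-5p, 1.15 for miR-5117-5p, 1.04 for miR-5099, 0.89 for miR-712-5p and 0.39 for miR-690. With PBS in the same tissue it was -1.13, -1.13, -1.15, -0.69 and -0.64. The opposite order was seen for miR-3069-3p, at -0.41 with amifostine and 0.21 with PBS, and for miR-1949, at -0.51 and 0.24. MiR-712-3p was higher at 8 Gy in both hypothalamus arms (mean 0.48) and lower in all 5 bone marrow arms (mean -0.97). Its hypothalamus sign turned to -0.11 with amifostine under normexp and to -0.30 with PBS under the scanner software's totals. Dose differences rose with probe GC content in hypothalamus (Spearman rho 0.399) but not in bone marrow (-0.0529), and miR-712-3p probes hold 74.0% GC. The part of GC content in its hypothalamus sign was not tested. Dixon's critical value (0.71 for 5 values, 0.829 for 4) was passed in 0 of 36 sets of arrays or arm differences. That includes miR-714 at 0 Gy, whose nilestriol array stood at 0.09 with the other 4 between -2.96 and -2.02.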

How the results depend on the processing

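The count of 47 miRNAs called in bone marrow irradiation was 30 with the brightest probe, 18 with the scanner software's totals, 7 with the authors' value table, 0 without a filter on dim miRNAs, 10 within slide 1, 0 within slide 2 and 0 on the 4 PBS arrays. Without the arm as block the pairing of doses was dropped and 26 were called. Leaving out 1 arm gave 1 to 89 calls: 1 with i.p. PBS left out, 2 with amifostine left out, 7 with CBLB502, 24 with i.g. PBS and 89 with nilestriol left out. The split of 34 higher and 13 lower was 21 and 13 with the 75th percentile over all miRNAs and 20 and 24 with quantile normalization. The members' median stayed between -0.96 and -0.63 when 1 arm was left out, and the count of members lower in every arm was 5 with normexp. With the authors' value table miR-677-5p was not lower with nilestriol. Amifostine gave 13 calls when an offset replaced the floor, and leaving out 1 array gave 0 each time.

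CBLB502, with 45 calls (20 higher, 25 lower), gave 83 (13 and 70) with the 75th percentile over all miRNAs, 47 (6 and 41) with quantile normalization, 68 with an offset, 12 with the scanner totals and 4 with the authors' table. It gave 0 without scaling, without a filter, with the GC trend removed and against i.p. PBS alone, and 0 to 43 when 1 array was left out. Nilestriol gave 72 with the 75th percentile over all miRNAs and 0 to 95 when 1 array was left out, with 95 without the nilestriol array at 8 Gy. Hypothalamus amifostine gave 9 with the authors' table; its single doses and single pretreatments are the values given per arm.

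The tissue count of 297 was 160 on miRNAs detected on all arrays. Of the members, 2 passed; 7 did with the 75th percentile over all miRNAs, quantile normalization, normexp or the authors' table, 6 on miRNAs detected on all arrays, 5 with an offset or the brightest probe and 1 without scaling. Without the condition as block (no pairing) 4 passed, and 2 to 4 when 1 condition was left out, with 4 without amifostine at 0 Gy. MiR-712-3p turned to 0.76 with the 75th percentile over all miRNAs, 0.51 with quantile normalization, 0.19 with normexp and 0.89 with the authors' table. MiR-690 turned to 0.68 with the 75th percentile over all miRNAs. Without scaling miR-677-5p was -0.059 and miR-3069-3p -0.33, and with the GC trend removed miR-712-5p was -0.69 and miR-714 -0.68. The cause of these changes was not tested. Low signal over background limits miR-712-3p and miR-677-5p.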
